A study of Mus musculus with 20 samples.

Results

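The genes described here are 10 regulators and precursor markers of the oligodendrocyte lineage: the receptor genes Pdgfra and Erbb3, the surface proteoglycan gene Cspg4, and the transcription factor genes Olig1, Olig2, Sox10, Nkx2-2, Nkx6-2, Myrf and Zfp488. They were taken by name from the 54532 rows of the count table, by a list chosen with earlier results of these data known. All 10 were found, and all 10 were among the 18336 genes that passed the filter on low counts. Polyadenylated RNA was sequenced from a brain hemisphere of mice lacking Glb1 and Neu3 together (DKO), Glb1 alone (Glb1KO) or Neu3 alone (Neu3KO), and of wild-type mice (WT, titled Control), with 5 libraries per genotype and 20 in all. Glb1 codes for the lysosomal beta-galactosidase whose loss causes GM1 gangliosidosis, a storage disease of the ganglioside GM1, and Neu3 codes for a plasma membrane sialidase that trims gangliosides. The labels trace healthy mice to The Jackson Laboratory. The kind of knockout allele, the strain background, the ages and whether the WT mice were littermates are not given in the sources used here. Each library carried its own animal identifier, but separate animals were not stated, so p-values measure the spread between these libraries.

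Oligodendrocytes, which wrap axons in myelin, arise from dividing precursors that carry the receptor Pdgfra and the proteoglycan NG2, the product of Cspg4. Olig2 and Sox10 act through the whole lineage, while Nkx2-2, Zfp488 and above all Myrf promote the exit from the precursor state and the switching on of myelin genes. Brain holds both precursors, spread through grey and white matter, and the myelinating cells they form.

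Total counts lay between 16682458 and 18525446 in DKO, 15734414 and 20391893 in Glb1KO, 15162311 and 25145806 in Neu3KO, and 16649633 and 19212266 in WT. Levels are given as CPM, read counts scaled to library size with TMM factors. Glb1 lay between 2.39 and 5.31 CPM in DKO and between 2.30 and 4.56 CPM in Glb1KO, against 19.0 to 21.8 CPM in Neu3KO and 18.2 to 21.8 CPM in WT, so the Glb1 labels were separated without overlap. Neu3 lay between 2.07 and 4.31 CPM in DKO and between 2.45 and 3.30 CPM in Neu3KO, against 3.18 to 4.88 CPM in Glb1KO and 2.32 to 5.53 CPM in WT, so gene counts did not separate the Neu3 labels. Lists of neuron, astrocyte and microglia markers were all detected, in keeping with brain tissue. The animal identifiers began with the letter E in 2 DKO, 2 Glb1KO, 1 Neu3KO and all 5 WT libraries, with W in 3 DKO and 4 Neu3KO libraries and with L in 3 Glb1KO libraries, and their meaning was not given. Hence the letter and the genotype can only be partly told apart. For the lineage genes, values within letter E are given where a call depended on it. Whether the calls of genes on the other lists depended on the letter was not tested.

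Markers of other cells and of other brain regions moved with genotype too. The summed level of 11 hindbrain and spinal neuron markers lay between 30.4 and 53.1 CPM in DKO, 20.03 and 39.2 CPM in Glb1KO, 23.1 and 92.8 CPM in Neu3KO, and 71.3 and 115 CPM in WT. Of its 10 tested members, 4 were lower in DKO and 3 in Glb1KO than in WT, and Hoxb3 was below the filter. The 12 microglia markers summed to between 668 and 843 CPM in DKO, 343 and 377 CPM in Glb1KO, 255 and 287 CPM in Neu3KO, and 211 and 254 CPM in WT, with 10 members higher in DKO and 8 in Glb1KO. The 10 astrocyte markers summed to between 9856 and 11190 CPM in DKO, 5585 and 5871 CPM in Glb1KO, 5065 and 5637 CPM in Neu3KO, and 4923 and 5186 CPM in WT, with 9 members higher in DKO and 2 in Glb1KO. The 10 neuron markers summed to between 6070 and 6506 CPM in DKO, 7061 and 7481 CPM in Glb1KO, 6919 and 7748 CPM in Neu3KO, and 6847 and 7184 CPM in WT, with 4 members lower in DKO and 1 higher in Glb1KO. Over all genes tested, 29.0% passed in DKO and 3.96% in Glb1KO against WT. The part of these shifts in cell and region markers in the results on the lineage genes was not tested.

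Promoter sequence was at hand for 6 of the 10 genes, in RefSeq's windows of 250 bases before to 50 after annotated starts on GRCm38.p6. The 4 printed here pair Olig2 and Nkx6-2, which were lower in brains without Glb1, with Pdgfra and Cspg4, which did not pass the test in any comparison. Capitals mark matches on either strand to the E-box CANNTG, bound by basic helix-loop-helix factors such as Olig2, to the SOX core ACAANG and to the MYRF core CTGGNAC. Among all 32851 RefSeq promoters of this length, 72.3% held the E-box, 41.2% the SOX core and 19.3% the MYRF core.
Olig2, chr16:91225300-91225599, plus strand: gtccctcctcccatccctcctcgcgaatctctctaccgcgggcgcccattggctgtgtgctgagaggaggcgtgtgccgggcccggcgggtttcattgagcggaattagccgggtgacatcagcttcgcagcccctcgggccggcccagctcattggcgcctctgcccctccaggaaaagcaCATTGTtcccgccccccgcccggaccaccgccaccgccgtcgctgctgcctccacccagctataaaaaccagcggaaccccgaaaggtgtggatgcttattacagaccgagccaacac
Nkx6-2, chr7:139582748-139583047, minus strand: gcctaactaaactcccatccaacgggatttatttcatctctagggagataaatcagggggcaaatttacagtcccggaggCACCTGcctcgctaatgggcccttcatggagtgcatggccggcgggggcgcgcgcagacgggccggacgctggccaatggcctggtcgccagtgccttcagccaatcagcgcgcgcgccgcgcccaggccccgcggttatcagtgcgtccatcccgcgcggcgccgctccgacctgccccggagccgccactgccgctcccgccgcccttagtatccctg
Pdgfra, chr5:75152001-75152300, plus strand: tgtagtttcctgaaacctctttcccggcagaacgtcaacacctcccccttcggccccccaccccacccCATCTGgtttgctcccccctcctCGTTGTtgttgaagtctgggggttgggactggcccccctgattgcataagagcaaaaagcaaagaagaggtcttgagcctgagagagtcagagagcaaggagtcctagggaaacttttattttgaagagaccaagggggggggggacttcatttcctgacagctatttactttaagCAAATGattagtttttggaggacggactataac
Cspg4, chr9:56864854-56865153, plus strand: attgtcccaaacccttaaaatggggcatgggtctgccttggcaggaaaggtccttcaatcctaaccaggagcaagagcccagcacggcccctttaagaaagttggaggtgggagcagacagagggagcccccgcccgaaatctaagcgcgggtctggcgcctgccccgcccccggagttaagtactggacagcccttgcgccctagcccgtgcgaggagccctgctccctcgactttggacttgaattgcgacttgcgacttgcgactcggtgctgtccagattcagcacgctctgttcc
The Olig2 window held 1 SOX core and no E-box, and 65.0% of its bases were G or C. In the Nkx6-2 window 1 E-box was found, and 66.7% of its bases were G or C. The Pdgfra window held 2 E-boxes and 1 SOX core, with 51.0% G or C. None of the motifs was found in the Cspg4 window, with 60.0% G or C, and the median over all promoters was 52.7%. Of those not shown, the window of Nkx2-2 (chr2:147186353-147186652, minus strand) held 3 E-boxes, and that of Zfp488 (chr14:33978715-33979014, minus strand) held 1 E-box overlapped by 1 MYRF core. The Nkx2-2 window lay inside the span of the gene, chr2:147177546-147194243, and not at its outer start. All these matches are descriptions of letters in a window and not of binding.

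Per length of transcript, the lineage genes covered a wide span of levels. On the scale of CPM per kilobase of the gene length in the table, WT brains held Olig1 at 65.1 ± 8.45, Sox10 at 19.6 ± 1.73, Olig2 at 14.8 ± 2.32, Myrf at 11.7 ± 0.816, Nkx6-2 at 9.89 ± 0.888, Pdgfra at 5.92 ± 0.312, Erbb3 at 3.84 ± 0.234, Cspg4 at 1.99 ± 0.244, Nkx2-2 at 1.91 ± 0.338 and Zfp488 at 0.842 ± 0.163 (SD, n = 5). Neighbours in this order whose libraries overlapped were Olig2 and Myrf, Myrf and Nkx6-2, and Cspg4 and Nkx2-2. The order differed in brains without Glb1. In Glb1KO, Pdgfra stood at 5.72 ± 0.624 per kilobase, above Myrf at 5.53 ± 0.432, with overlapping libraries, and Erbb3 at 1.61 ± 0.383 stood below Cspg4 at 1.92 ± 0.143, again with overlap. DKO brains likewise had Erbb3, at 1.64 ± 0.228 per kilobase, below Cspg4 at 1.92 ± 0.205 with overlapping libraries, and Myrf, at 6.73 ± 0.557, above Pdgfra at 5.57 ± 0.316.

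**Figure D1:**
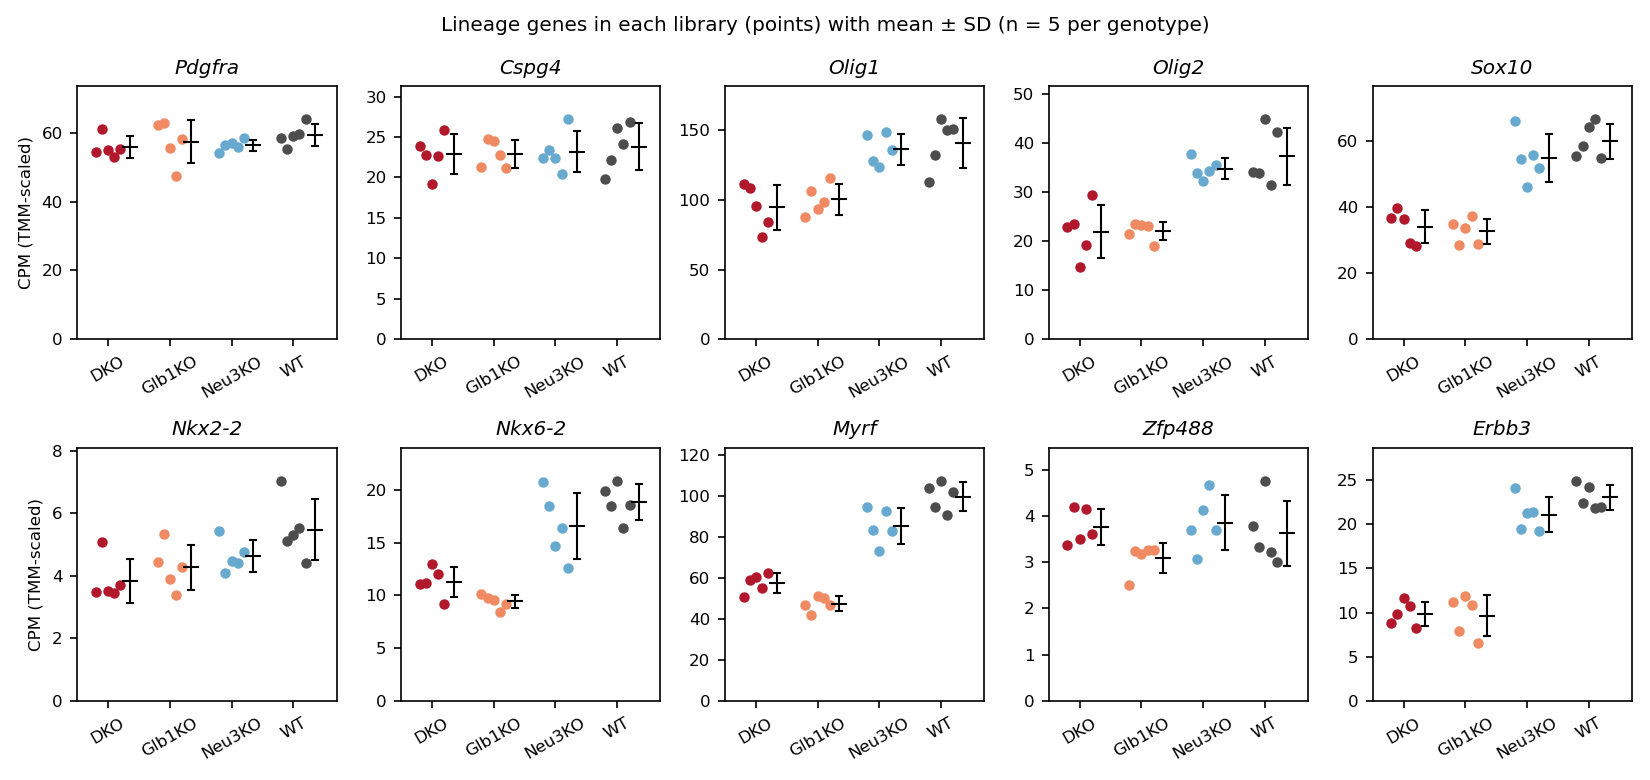
Level of each of the 10 lineage genes in CPM (vertical axes, from 0) in every library, grouped as DKO, Glb1KO, Neu3KO and WT, with the mean and SD beside the points (n = 5 per genotype). Myrf, Sox10, Erbb3 and Olig2 fall into a lower set, DKO and Glb1KO, and a higher set, Neu3KO and WT, with no overlap, while Pdgfra and Cspg4 overlap among all genotypes.

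Neither precursor marker passed the test in any comparison. Pdgfra (ENSMUSG00000029231, GRCm38 chr5:75152292-75198215, plus strand), the receptor through which platelet-derived growth factor drives precursor division, had 53.0, 54.5, 55.0, 55.2 and 61.2 CPM in DKO, 47.5, 55.7, 58.2, 62.3 and 63.0 CPM in Glb1KO and 54.0, 55.9, 56.5, 57.1 and 58.5 CPM in Neu3KO, against 55.3, 58.6, 59.0, 59.8 and 64.0 CPM in WT. The groups overlapped throughout. Its log2 difference from WT was -0.09 in DKO (95% interval from -0.22 to 0.04, adjusted p = 0.333), -0.05 in Glb1KO (from -0.18 to 0.08, adjusted p = 0.784) and -0.07 in Neu3KO (from -0.21 to 0.06, adjusted p = 0.926). Cspg4 (ENSMUSG00000032911, chr9:56865033-56899870, plus strand) had 19.2, 22.7, 22.8, 23.9 and 25.9 CPM in DKO, 21.1, 21.3, 22.8, 24.5 and 24.8 CPM in Glb1KO and 20.5, 22.4, 22.4, 23.4 and 27.2 CPM in Neu3KO, against 19.8, 22.1, 24.1, 26.1 and 26.9 CPM in WT. These ranges overlapped as well. Cspg4 differed from WT by -0.05 in DKO (95% interval from -0.24 to 0.13, adjusted p = 0.712), by -0.05 in Glb1KO (from -0.24 to 0.13, adjusted p = 0.849) and by -0.04 in Neu3KO (from -0.22 to 0.15, adjusted p = 0.986) on the log2 scale.

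Both genes are also transcribed outside the lineage, Pdgfra in perivascular and meningeal fibroblasts and Cspg4 in pericytes. Of 11 tested pericyte and mural cell genes, 3 rose in DKO, the peptidase gene Anpep (log2 1.47, adjusted p = 2.55e-07), the receptor gene Notch3 (0.62) and Pdgfrb (0.29), while the highest expressed, Rgs5 and Vtn, were at 0.17 and 0.09 without passing. None passed in Glb1KO. The 12 pericyte genes summed to between 214 and 236 CPM in DKO, 202 and 243 CPM in Glb1KO, 194 and 214 CPM in Neu3KO and 164 and 208 CPM in WT. Of 10 fibroblast genes, 2 rose in DKO, Slc6a13 (0.51) and Dcn (0.28), and Col1a1 fell by 0.43. Over all genes tested, 14.0% passed as higher and 15.1% as lower in DKO. The fibroblast list summed to between 79.8 and 105 CPM in DKO, 77.8 and 95.6 CPM in Glb1KO, 87.3 and 101 CPM in Neu3KO and 72.5 and 87.0 CPM in WT. What these cells contributed to the levels of Pdgfra and Cspg4 was not tested.

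A further 14 precursor genes were examined as a list. In DKO, 2 were higher and 2 lower than in WT, where 29.0% of all genes passed. The median log2 change of the list was -0.0001, beside a median of -0.0032 over all genes tested. The members that passed were Matn4 (0.29, adjusted p = 0.0422) and the phosphatase gene Ptprz1 (0.14, adjusted p = 0.0443), which were higher, and Sox5, whose product opposes Sox10 (-0.23, adjusted p = 0.0250), and Cacng4 (-0.21, adjusted p = 0.0327), which were lower. Astrocytes also transcribe Ptprz1. In Glb1KO none of the 14 passed, and their median was -0.06. The summed level of this list lay between 776 and 903 CPM in DKO, 814 and 861 CPM in Glb1KO, 789 and 921 CPM in Neu3KO, and 792 and 814 CPM in WT, with all groups overlapping.

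Olig1, Olig2, Sox10, Myrf, Nkx6-2 and Erbb3 were lower in both genotypes without Glb1, and Nkx2-2 in DKO, while Zfp488 passed in neither. In DKO against WT, 7 of the 10 genes fell, none rose, and their median log2 change was -0.66. Over all genes tested 29.0% passed the threshold, 15.1% as lower and 14.0% as higher. The 10 genes were chosen with earlier results of these data known, so these shares are given as description and not as a test. In 6 of the 7 the libraries of DKO and WT did not overlap, which held for 9.35% of all genes in the lower direction. In Glb1KO against WT, 6 of the 10 fell and none rose, with a median of -0.62, where 3.96% of all genes passed, 2.21% as lower and 1.75% as higher. The libraries of Glb1KO and WT did not overlap in 5 of them, against 2.96% of all genes. In RNA of bulk tissue, fewer cells of a type and less RNA of these genes per cell cannot be told apart. Both comparisons share the WT libraries.

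**Figure D2:**
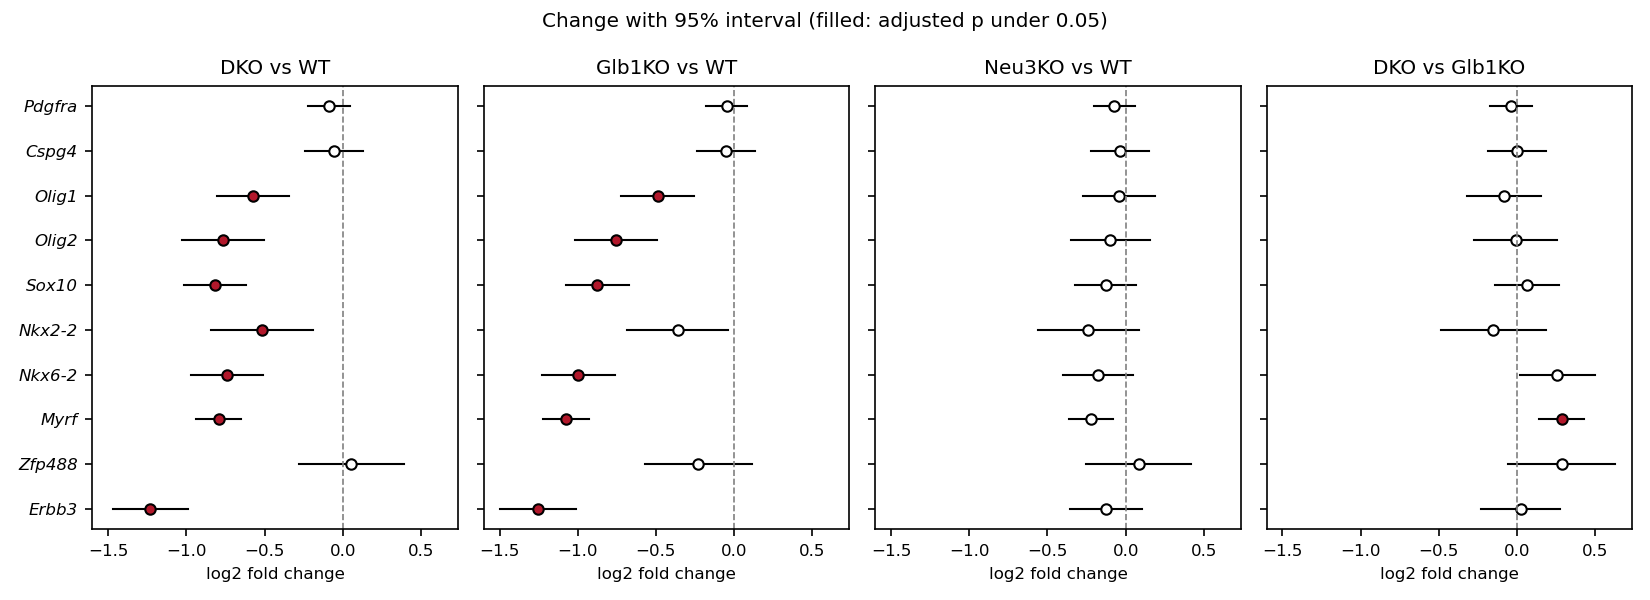
Log2 fold change (horizontal axes) of each of the 10 genes with its 95% interval, for DKO against WT, Glb1KO against WT, Neu3KO against WT and DKO against Glb1KO. Filled points have an adjusted p under 0.05: 7 of 10 in the first panel, 6 in the second, 0 in the third and 1, Myrf, in the fourth.

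Olig2 and Olig1 are basic helix-loop-helix factors. Olig2 specifies the lineage and Olig1 supports its maturation. They lie on chromosome 16, with 41.1 kb between them. Olig2 (ENSMUSG00000039830, chr16:91225457-91228677, plus strand) had 14.7, 19.3, 22.8, 23.6 and 29.4 CPM in DKO, 19.1, 21.4, 23.1, 23.3 and 23.5 CPM in Glb1KO and 32.2, 34.0, 34.5, 35.6 and 37.9 CPM in Neu3KO, against 31.5, 33.9, 34.2, 42.2 and 45.0 CPM in WT. Every DKO and Glb1KO library was below every WT library. Its level was 1.70-fold lower in DKO (log2 -0.77, SE 0.13, adjusted p = 4.51e-05) and 1.69-fold lower in Glb1KO (log2 -0.76, SE 0.13, adjusted p = 0.000345) than in WT. Olig1 (ENSMUSG00000046160, chr16:91269772-91271933, plus strand) had 73.2, 83.8, 95.8, 109 and 112 CPM in DKO, 87.7, 93.5, 98.3, 107 and 116 CPM in Glb1KO and 124, 128, 136, 146 and 149 CPM in Neu3KO, against 113, 132, 149.9, 151 and 158 CPM in WT. The highest Glb1KO library passed the lowest WT library, and the DKO libraries all stayed below WT. Olig1 was 1.49-fold lower in DKO (log2 -0.57, SE 0.11, adjusted p = 0.000552) and 1.40-fold lower in Glb1KO (log2 -0.49, SE 0.11, adjusted p = 0.0127).

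The call of Olig1 depended on the identifier letter. With the letter as a term, Olig1 was at -0.42 in DKO (adjusted p = 0.00896) and at -0.40 in Glb1KO (adjusted p = 0.135). Among libraries with letter E alone it was at -0.34 in DKO (adjusted p = 0.0552) and at -0.39 in Glb1KO (adjusted p = 0.124). Olig2 stayed called in each of these fits, between -0.67 and -0.82 on the log2 scale. The log2 ratio of Olig1 to Olig2 within a library averaged 2.12 ± 0.44 in DKO, 2.17 ± 0.24 in Glb1KO, 1.96 ± 0.08 in Neu3KO and 1.91 ± 0.21 in WT (SD, n = 5). No difference in this ratio passed, with exact permutation p = 0.373 for DKO against WT and exact permutation p = 0.103 for Glb1KO against WT (two-sided, adjusted exact p = 0.533 and 0.206 over 10 tests). Without WT replicate 4 the Glb1KO difference was 0.34, against 0.26 with all libraries, and its adjusted exact p was 0.0397.

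Sox10 is the HMG-box factor that keeps oligodendrocyte identity and switches on Myrf and myelin genes. Sox10 (ENSMUSG00000033006, chr15:79154908-79165240, minus strand) had 28.3, 29.1, 36.3, 36.8 and 39.8 CPM in DKO, 28.6, 28.8, 33.6, 34.8 and 37.3 CPM in Glb1KO and 46.1, 51.6, 54.4, 55.7 and 65.9 CPM in Neu3KO, against 54.9, 55.4, 58.4, 64.2 and 66.6 CPM in WT. The DKO and Glb1KO libraries lay below all Neu3KO and WT libraries. It was 1.76-fold lower in DKO (log2 -0.81, SE 0.10, adjusted p = 1.87e-07) and 1.84-fold lower in Glb1KO (log2 -0.88, SE 0.10, adjusted p = 3.43e-07). Within letter E the log2 change was -0.63 in DKO and -0.86 in Glb1KO, both called.

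Schwann cells, the myelinating glia of peripheral nerve, use Sox10 and Erbb3 too. Of 9 Schwann cell genes 6 were tested, and among those below the filter Pmp2 had no read in any library and Mlana had 21 reads in all. The part of Schwann cells in the levels of Sox10 and Erbb3 was not tested.

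Myrf codes for a membrane-bound factor that cleaves itself to release an active part, and it is needed to start and to keep up myelin gene expression. Myrf (ENSMUSG00000036098, chr19:10208272-10240748, minus strand) had 50.6, 55.3, 59.0, 60.7 and 62.6 CPM in DKO, 41.7, 46.8, 47.0, 50.2 and 51.1 CPM in Glb1KO and 73.0, 83.0, 83.5, 92.5 and 94.9 CPM in Neu3KO, against 90.5, 94.8, 102, 104 and 108 CPM in WT. Every library without Glb1 lay below every library with it, and the lowest DKO library fell within the Glb1KO range. Myrf was 1.73-fold lower in DKO (log2 -0.79, SE 0.07, adjusted p = 6.06e-11) and 2.11-fold lower in Glb1KO (log2 -1.08, SE 0.07, adjusted p = 3.67e-13) than in WT.

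Nkx6-2 and Nkx2-2 are homeodomain factors, Nkx6-2 of maturing oligodendrocytes and Nkx2-2 of cells at the start of differentiation. Nkx6-2 (ENSMUSG00000041309, chr7:139579376-139582797, minus strand) had 9.18, 11.1, 11.2, 12.01 and 13.0 CPM in DKO, 8.46, 9.19, 9.61, 9.77 and 10.2 CPM in Glb1KO and 12.6, 14.7, 16.4, 18.5 and 20.7 CPM in Neu3KO, against 16.4, 18.5, 18.6, 19.9 and 20.9 CPM in WT. No DKO or Glb1KO library reached the WT range. The gene was 1.67-fold lower in DKO (log2 -0.74, SE 0.11, adjusted p = 3.76e-06) and 2.0-fold lower in Glb1KO (log2 -0.997, SE 0.11, adjusted p = 1.26e-07). It shares 246 of its 1907 exon bases with Inpp5a on the opposite strand, which had 37641 reads over all libraries against 5071 for Nkx6-2, and the strand setting of the counting is not given in the sources used here, so reads of the 2 genes may have been mixed or lost there.

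Nkx2-2 (ENSMUSG00000027434, chr2:147177546-147194243, minus strand) had 3.45, 3.48, 3.51, 3.72 and 5.09 CPM in DKO, 3.40, 3.90, 4.28, 4.44 and 5.34 CPM in Glb1KO and 4.09, 4.41, 4.48, 4.77 and 5.45 CPM in Neu3KO, against 4.42, 5.12, 5.30, 5.53 and 7.06 CPM in WT. The groups overlapped. Nkx2-2 passed the test in DKO (log2 -0.51, SE 0.16, adjusted p = 0.0144) and did not in Glb1KO (log2 -0.36, SE 0.16, adjusted p = 0.242). The DKO call rested on WT replicate 1, without which it was at -0.40 (adjusted p = 0.0707), and on the letter, with -0.35 both with the letter as a term (adjusted p = 0.216) and within letter E (adjusted p = 0.377). Its antisense gene Nkx2-2os, which overlaps 278 of its 2875 exon bases, had fewer reads in all than its 1629.

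Zfp488, a zinc finger gene whose product works with Olig2 in mice, was the lowest expressed of the 10. Zfp488 (ENSMUSG00000044519, chr14:33967070-33978764, minus strand) had 3.36, 3.51, 3.61, 4.14 and 4.20 CPM in DKO, 2.51, 3.17, 3.24, 3.25 and 3.27 CPM in Glb1KO and 3.08, 3.69, 3.69, 4.13 and 4.68 CPM in Neu3KO, against 3.00, 3.22, 3.32, 3.79 and 4.76 CPM in WT. Its log2 difference from WT was 0.06 in DKO (95% interval from -0.28 to 0.39, adjusted p = 0.845) and -0.23 in Glb1KO (from -0.57 to 0.12, adjusted p = 0.551). All groups overlapped with WT.

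Of the 10 genes, Erbb3 had the largest log2 difference from WT in DKO and in Glb1KO. Its product is a neuregulin receptor that signals by pairing with Erbb2. Erbb3 (ENSMUSG00000018166, chr10:128567523-128589652, minus strand) had 8.28, 8.77, 9.82, 10.8 and 11.6 CPM in DKO, 6.57, 7.86, 10.8, 11.2 and 11.8 CPM in Glb1KO and 19.3, 19.4, 21.2, 21.4 and 24.1 CPM in Neu3KO, against 21.9, 21.9, 22.4, 24.2 and 24.96 CPM in WT. All libraries without Glb1 were below all libraries with it. It was 2.34-fold lower in DKO (log2 -1.23, SE 0.12, adjusted p = 4.66e-10) and 2.38-fold lower in Glb1KO (log2 -1.25, SE 0.12, adjusted p = 2.40e-09). Within letter E it was at -1.30 in DKO and -1.40 in Glb1KO, both called.

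Ligands and partners of these receptors were examined as a list of 8. In DKO 5 were lower than in WT and 1 higher, with a median of -0.19, where 29.0% of all genes passed. The neuregulin genes Nrg1 (-0.36, adjusted p = 0.00314), Nrg2 (-0.28, adjusted p = 0.0484) and Nrg3 (-0.25, adjusted p = 0.0105), the receptor gene Erbb4 (-0.17, adjusted p = 0.0295) and the Pdgfra ligand gene Pdgfa (-0.22, adjusted p = 0.0476) were lower, and Egfr was higher (0.24, adjusted p = 0.0464). These genes are transcribed by neurons and astrocytes as well, whose lists moved in DKO as given above. None of the 8 passed in Glb1KO, where Nrg1 was at -0.14 and Pdgfa at -0.05.

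The authors' deposited table of DKO over WT called the same 7 lineage genes lower and none higher. In that table Erbb3 was at -1.23, Sox10 at -0.81, Myrf at -0.79, Olig2 at -0.76, Nkx6-2 at -0.74, Olig1 at -0.57 and Nkx2-2 at -0.51 on the log2 scale. It is not independent evidence, since it was made from the same counts.

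Loss of Neu3 alone was compared with WT for its own effect on these genes. None of the 10 passed the edgeR test, where 0 genes of the whole table did, 1105 had an unadjusted p under 0.05 and DESeq2 called 2, of which 0 were lineage genes. In this comparison 9 of the 10 were below 0, with a median of -0.11, beside a median of -0.0002 over all genes tested. Myrf was the 1 member with an unadjusted p under 0.05, at a log2 difference of -0.22 (95% interval from -0.37 to -0.08, adjusted p = 0.689). Erbb3 was at -0.13 (from -0.36 to 0.10), Sox10 at -0.13 (from -0.32 to 0.07), Olig2 at -0.10 (from -0.35 to 0.15) and Olig1 at -0.04 (from -0.27 to 0.19). With the letter as a term, Myrf was at -0.21 and Erbb3 at -0.09. In the same fit Sox10 was at 0.12, Olig2 at 0.01 and Olig1 at 0.18. None of these genes passed. For no member did the libraries of Neu3KO and WT stand apart, as they did for 0.660% of all genes in the lower and 0.524% in the higher direction. With 1 Neu3KO library of letter E, letter and genotype were nearly confounded here.

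Setting DKO against Glb1KO asked what the loss of Neu3 added in brains that lacked Glb1. Of the 10 genes, 1 passed: Myrf was 1.22-fold higher in DKO (log2 0.28, SE 0.07, adjusted p = 0.00492). Over all genes tested, 15.7% passed and 8.41% did so as higher. The median of the 10 was 0.01. Myrf lost this call with the letter as a term (0.25, adjusted p = 0.187) and within letter E (0.18, adjusted p = 0.419), where each genotype had 2 libraries. Nkx6-2 was at 0.26 (95% interval from 0.02 to 0.50, adjusted p = 0.144). Zfp488, at 0.28 (from -0.06 to 0.63, adjusted p = 0.285), was the 1 gene of which every DKO library lay above every Glb1KO library, as did 6.78% of all genes. The other 7 lay between -0.15 and 0.06. Their intervals reached from -0.49 for Nkx2-2 to 0.28 for Erbb3, so the libraries allow differences within those bounds.

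Set against Neu3KO, for the loss of Glb1 in brains that lacked Neu3, DKO had 6 of the 10 genes lower, where 25.1% of all genes passed and 12.8% did so as lower. Erbb3 was at -1.10 (SE 0.12), Sox10 at -0.69 (SE 0.10), Olig2 at -0.67 (SE 0.13), Myrf at -0.57 (SE 0.07), Nkx6-2 at -0.56 (SE 0.11) and Olig1 at -0.53 (SE 0.11), with adjusted p from 6.34e-09 for Erbb3 to 0.00134 for Olig1. Within letter E, with 1 Neu3KO library, Olig1 was at -0.40 and did not pass (adjusted p = 0.211). Of the 6 genes, all but Nkx6-2 had libraries that did not overlap, against 7.20% of all genes in that direction. Nkx2-2 was at -0.28 (adjusted p = 0.236), Pdgfra at -0.02, Cspg4 at -0.02 and Zfp488 at -0.03.

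The interaction of the knockouts, the DKO over Glb1KO change minus the Neu3KO over WT change, asked whether losing Neu3 had another effect without Glb1 than with it. It passed for 1 of the 10 genes, Myrf (log2 0.51, SE 0.10, 95% interval from 0.30 to 0.71, adjusted p = 0.000866), where 6.84% of all genes passed, 3.96% with a positive sign. Behind it, Myrf averaged 57.6 ± 4.77 CPM in DKO and 47.4 ± 3.695 CPM in Glb1KO, and 85.4 ± 8.72 CPM in Neu3KO and 99.8 ± 6.99 CPM in WT (SD, n = 5 each). Myrf was thus 1.22-fold higher in DKO than in Glb1KO, which passed, and 1.17-fold lower in Neu3KO than in WT, which did not. With the letter as a term the interaction of Myrf was 0.47 and passed (adjusted p = 0.0152), and within letter E, where Neu3KO had 1 library, it was 0.25 and did not (adjusted p = 0.695). Nkx6-2 was at 0.43 (adjusted p = 0.106), and without Neu3KO replicate 1 it was at 0.53 and passed (adjusted p = 0.0389).

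A ratio within a library does not depend on how libraries are scaled, and the ratio of Pdgfra to Myrf sets a precursor gene against the factor that starts myelination. The log2 ratio of their CPM lay between -0.18 and 0.11 in DKO, -0.08 and 0.59 in Glb1KO, -0.81 and -0.35 in Neu3KO, and -0.87 and -0.60 in WT. DKO and Glb1KO lay above WT without overlap. It averaged -0.04 ± 0.12 in DKO, 0.27 ± 0.26 in Glb1KO, -0.59 ± 0.18 in Neu3KO and -0.75 ± 0.11 in WT (SD, n = 5). The ratio was higher than in WT by 0.70 in DKO and by 1.02 in Glb1KO, each with an exact permutation p = 0.00794, the smallest that 5 against 5 libraries allow, and an adjusted exact p = 0.0265. For Neu3KO the difference from WT was 0.16 (exact permutation p = 0.143). DKO lay above Neu3KO by 0.55 (exact permutation p = 0.00794, adjusted exact p = 0.0265). Pdgfra passed in no comparison, so these differences largely restate those of Myrf given above. Both genes come from a list chosen with earlier results of these data known. The p-values of this ratio are therefore description and not separate evidence. DKO was lower than Glb1KO by 0.32 on this scale, which did not pass (difference -0.32, exact permutation p = 0.0397, adjusted exact p = 0.0992), although without Glb1KO replicate 4 it did (-0.40, adjusted exact p = 0.0397).

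**Figure D3:**
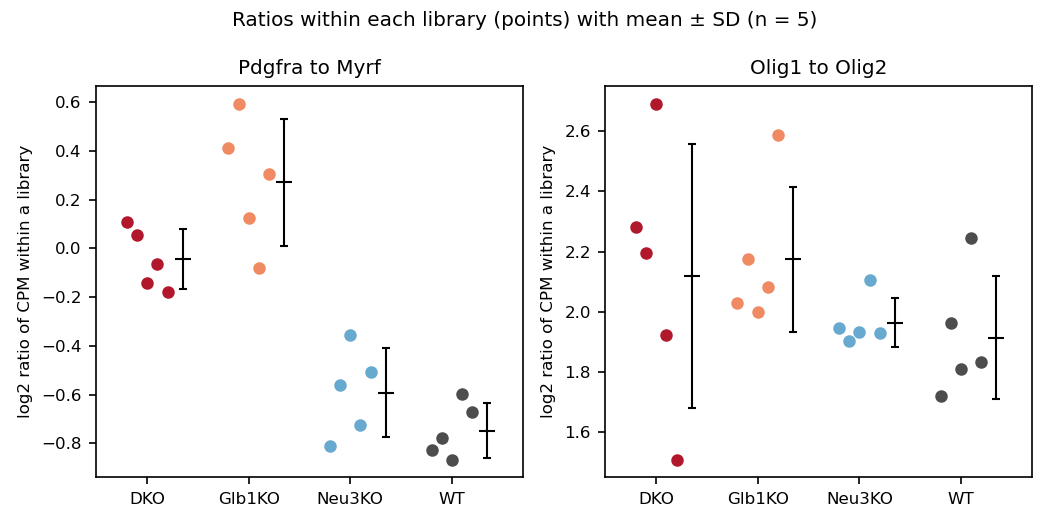
Log2 ratio of CPM within each library (vertical axes, points) with mean and SD (n = 5), for Pdgfra to Myrf and for Olig1 to Olig2, in DKO, Glb1KO, Neu3KO and WT. The Pdgfra to Myrf ratio is -0.18 or above in all DKO and Glb1KO libraries and -0.35 or below in all Neu3KO and WT libraries, while the Olig1 to Olig2 ratio overlaps among all genotypes.

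Other genes of the lineage were set beside these regulators by stage. Of 12 genes of newly formed oligodendrocytes, 2 were higher and 3 lower in DKO than in WT, where 29.0% of all genes passed. Their median was -0.16. The lower ones were Bcas1 (-0.41, adjusted p = 0.000192), Enpp6 (-0.40, adjusted p = 0.0445) and Gpr17 (-0.65, adjusted p = 0.0279), a receptor that restrains maturation, and the higher ones Tns3 (0.27) and Itpr2 (0.23). In Glb1KO, Bcas1 (-0.66, adjusted p = 1.22e-06) and Enpp6 (-0.59, adjusted p = 0.0174) fell, and the median of the 12 was -0.12. Fyn, a kinase gene that neurons also transcribe, was at -0.07 in DKO and -0.10 in Glb1KO without passing.

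All 19 genes of myelin and mature oligodendrocytes fell in DKO and all 19 in Glb1KO. Their median was -0.94 in DKO and -0.89 in Glb1KO. Over all genes tested, 15.1% passed as lower in DKO and 2.21% in Glb1KO. In DKO the receptor gene Gpr37 was at -1.19, the fatty acid hydroxylase gene Fa2h at -1.34, the adhesion gene Mag at -0.94, Tspan2 at -0.86, and the abundant structural gene Mbp at -0.44. The values in Glb1KO were -0.99 for Gpr37, -1.09 for Fa2h, -0.90 for Mag, -0.99 for Tspan2 and -0.70 for Mbp. In Neu3KO none of the 19 passed and the median was -0.06. The 19 genes summed to between 3908 and 5163 CPM in DKO, 3879 and 4419 CPM in Glb1KO, 6309 and 7085 CPM in Neu3KO and 6245 and 7057 CPM in WT.

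**Figure D4:**
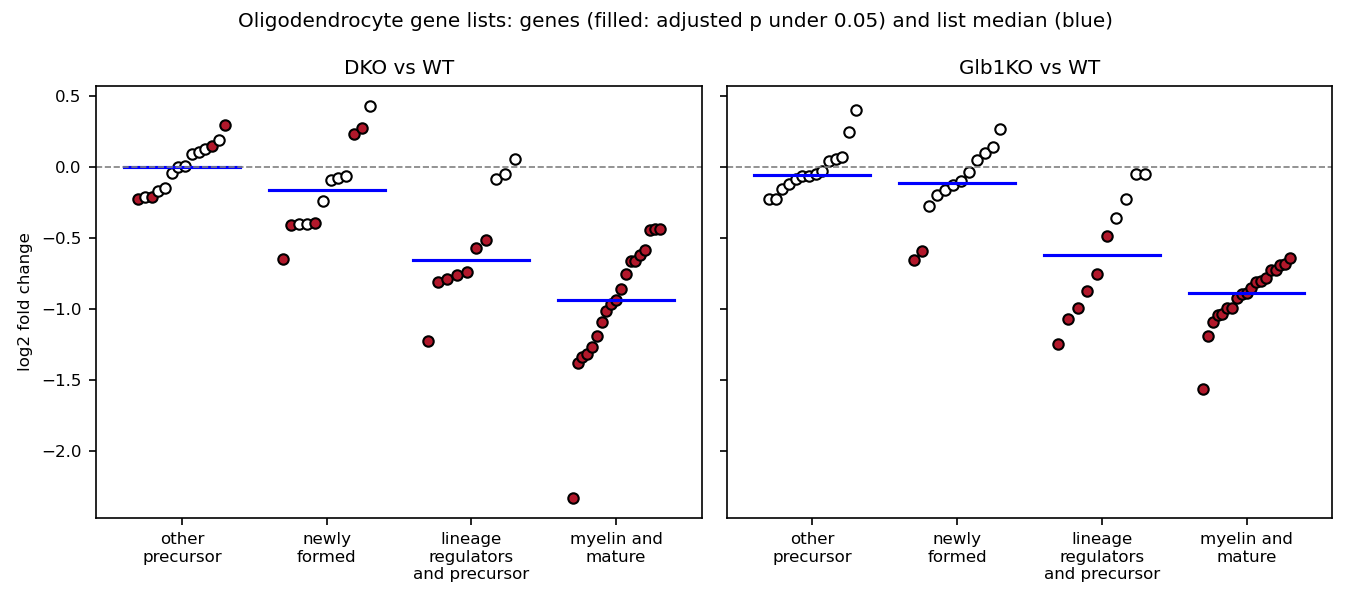
Log2 fold change (vertical axis) of each gene in 4 lists, 14 other precursor genes, 12 genes of newly formed oligodendrocytes, the 10 lineage genes and 19 myelin genes, for DKO against WT and Glb1KO against WT. Filled points have an adjusted p under 0.05 and the blue line is the list's median, which is -0.0001, -0.16, -0.66 and -0.94 in DKO and -0.06, -0.12, -0.62 and -0.89 in Glb1KO.

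Further regulators of the lineage mostly did not pass. Of 20 such genes, 2 were higher and 3 lower in DKO, with a median of -0.05, where 29.0% of all genes passed. Lower were Zfp536 (-0.48, adjusted p = 5.66e-05), a zinc finger gene, the chromatin remodeller gene Smarca4 (-0.27) and Sox8 (-0.47), a relative of Sox10. Sox9, which astrocytes express, rose by 0.73 (adjusted p = 2.99e-08), beside an astrocyte list of which 9 of 10 rose, and Hdac1 rose by 0.23. In Glb1KO, Zfp536 (-0.57) and the RNA-binding gene Qk (-0.36, adjusted p = 4.58e-05) fell, while Qk was at -0.05 and Tcf4, a partner of Olig2, at -0.04 in DKO without passing.

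On a list of 10 genes linked to the control of differentiation, 2 were higher and 4 lower in DKO than in WT. Their median was -0.10, and 29.0% of all genes passed. Lingo1, which neurons express too, was at -0.61 (adjusted p = 2.36e-06), the Notch target gene Hes5 at -0.91 (adjusted p = 0.00156) and the growth factor gene Ptn at -0.29 (adjusted p = 0.00195). Gpr17, listed here as well, was the fourth that fell. Id2 rose by 0.30 (adjusted p = 0.00248) and Bmpr1a by 0.22 (adjusted p = 0.00698). In Glb1KO, Notch1 was the 1 gene that passed, at -0.34 (adjusted p = 0.0278).

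Across the 20 libraries the genes most like each regulator were sought by the root mean square difference of log2 CPM, each gene taken less its WT mean. Sox10 was nearest to the myelin gene Mag (0.128), then Slain1 (0.151) and Prr18 (0.154). For Myrf the nearest were Plxnb3 (0.184), Tspan2 (0.191) and Plekhh1 (0.195), and for Erbb3 Plekhh1 (0.257), Gpr37 (0.259) and Mcam (0.261). Nkx6-2 was nearest to Sec14l5 (0.168), Phldb1 (0.189) and Mcam (0.190). Olig1 was nearest to Kif5b (0.138), Agpat4 (0.152) and Bcas1 (0.152), and Olig2 to Car2 (0.197), Gatm (0.210) and Anln (0.211). Nkx2-2 was nearest to Plk3 (0.181), Zfhx3 (0.181) and Kif21b (0.185). Among the 10 themselves the closest pairs were Pdgfra with Cspg4 (0.149), Nkx6-2 with Myrf (0.179) and Sox10 with Myrf (0.195), while Olig1 with Olig2 differed by 0.297. Genes that stay near their WT mean score as close by this measure, and neither Pdgfra nor Cspg4 passed in any comparison.

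The hindbrain markers were set beside the lineage genes library by library. In Neu3KO the summed hindbrain level was 38.8, 23.1 and 35.8 CPM in replicates 2, 3 and 5, within the Glb1KO range, and 89.4 and 92.8 CPM in replicates 1 and 4, within the WT range. Myrf stood at 83.5, 73.0 and 83.0 CPM in replicates 2, 3 and 5 and at 94.9 and 92.5 CPM in replicates 1 and 4, against a highest value of 62.6 CPM in DKO and 51.1 CPM in Glb1KO. Sox10 stood at 54.4, 46.1 and 51.6 CPM in replicates 2, 3 and 5 and at 65.9 and 55.7 CPM in replicates 1 and 4, against highest values of 39.8 CPM in DKO and 37.3 CPM in Glb1KO. For both genes, the Neu3KO libraries with low hindbrain levels were above all libraries without Glb1. Replicate 1 carried letter E and the other Neu3KO libraries letter W. What the hindbrain content contributed to the levels of the lineage genes was not tested. The Neu3KO replicates were divided here by their hindbrain values, into groups as small as 2 libraries. The share of all genes that such a division separates was not counted, so the values that follow are description only. Within Neu3KO, Myrf and Sox10 were lower in every one of replicates 2, 3 and 5 than in replicates 1 and 4. So were Olig1, at 128, 124 and 136 CPM in replicates 2, 3 and 5 and at 146 and 149 CPM in replicates 1 and 4, and Erbb3, at 19.4, 21.2 and 19.3 CPM in replicates 2, 3 and 5 and at 24.1 and 21.4 CPM in replicates 1 and 4. Pdgfra was higher there, at 56.5, 57.1 and 58.5 CPM in replicates 2, 3 and 5 and at 54.0 and 55.9 CPM in replicates 1 and 4. The other 5 genes overlapped between them, among them Nkx6-2, at 18.5, 14.7 and 12.6 CPM in replicates 2, 3 and 5 and at 20.7 and 16.4 CPM in replicates 1 and 4, and the lowest of these, in replicate 5, lay within the DKO range.

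**Figure D5:**
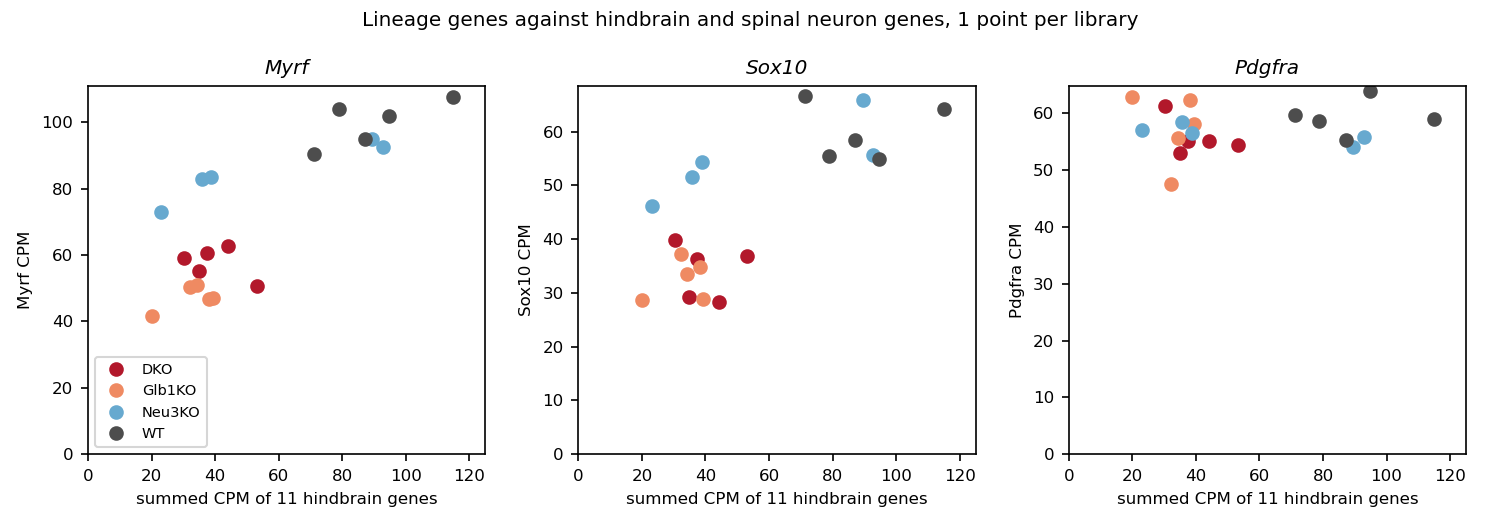
Myrf, Sox10 and Pdgfra in CPM (vertical axes) against the summed CPM of 11 hindbrain and spinal neuron markers (horizontal axes), 1 point per library, with DKO, Glb1KO, Neu3KO and WT in different colours. The 3 Neu3KO libraries with summed levels of 23.1 to 38.8 CPM lie above all DKO and Glb1KO libraries for Myrf and Sox10, and Pdgfra overlaps among all genotypes.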

How the data were processed

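Polyadenylated RNA of a brain hemisphere was sequenced in 20 libraries of 4 genotypes. The authors deposited raw read counts per gene, and their own DKO over WT comparison holds log2 fold changes and adjusted p-values, per the file headers. Builds mm10 and GRCm38 stand in the submitters' processing notes beside featureCounts 1.5.0-p3, fastp, DESeq2 1.20.0 and HISAT2 2.0.5, without a strand setting. The FPKM table was not used.

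Counts were fitted over all 18336 genes with edgeR 4.0.16 in R 4.3.3 (TMM factors, filterByExpr, robust quasi-likelihood F test, a mean per genotype, all 20 libraries), with Benjamini-Hochberg adjustment over all genes and a threshold of 0.05, two-sided. SE values come from the F statistic, intervals are 95%, and CPM carry TMM factors. Ratios took a prior count of 2 on log2 CPM and were tested by exact permutation over 252 arrangements. The fit was tested on simulated counts.

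The 10 genes and the 13 other lists were chosen with earlier results of these data known, so no p adjusted over a list is given. Named from each list were up to 4 genes with the smallest adjusted p in DKO vs WT and the 2 with the highest CPM, while lists of other cell types are given mainly as sums. Some genes that this rule selects are not reported here. Enpp6, Nrg2, Pdgfa, Hdac1, Bmpr1a, Notch1 and genes below the filter were named after their values were seen. Likeness took genes of at least 1 CPM. Alternatives were other scaling factors, 2 other filters, DESeq2 1.42.0, the compared genotypes alone, the replicate number or identifier letter as a term, letter E alone and each library left out. Positions match GENCODE M21.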

Additional observations from a re-analysis of the deposited data

Results flagged for a closer look

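For Myrf, the DKO over Glb1KO change differed from the Neu3KO over WT change, by the test of the interaction. Myrf was the 1 of the 10 genes that passed this test, where 6.84% of all genes passed. Of the changes behind it, DKO over Glb1KO lost its call with the letter as a term, and Neu3KO over WT did not pass. The interaction was 0.51 on the log2 scale (SE 0.10, edgeR adjusted p = 0.000866). Myrf was at 57.6 ± 4.77 CPM in DKO and 47.4 ± 3.695 CPM in Glb1KO, and at 85.4 ± 8.72 CPM in Neu3KO and 99.8 ± 6.99 CPM in WT (SD, n = 5 each). A fit with the letter of the animal identifier as a term gave an interaction of 0.47, which still passed (adjusted p = 0.0152), and in the libraries of letter E alone, with 1 Neu3KO library, it was 0.25 (adjusted p = 0.695).

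Among 40 groups of 5 libraries, 10 genes in 4 genotypes, 3 held a library that stood apart from the others, where chance gives about 1 in 20. Pdgfra reached 61.2 CPM in DKO replicate 2, above the other DKO libraries at 53.0 to 55.2 CPM. Nkx2-2 reached 5.09 CPM in the same library, against 3.45 to 3.72 CPM in the other DKO libraries. Zfp488 was at 2.51 CPM in Glb1KO replicate 1, below the other Glb1KO libraries at 3.17 to 3.27 CPM.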

How the results depend on the processing

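Of 1730 values of a lineage gene in a comparison under an alternative setting, 1719 kept their side of the threshold, 10 lost a call and 1 gained one. Of the 1719, 72 had the other sign, none of them called in either fit and none above 0.18 in size. Of these 72, 37 were for DKO against Glb1KO and 12 for Neu3KO against WT. The interaction held 11, DKO against Neu3KO 10, and DKO and Glb1KO against WT 1 each. The calls lost were those of Nkx2-2, Olig1 and Myrf given in the report and that of Olig1 for DKO against Neu3KO within letter E (-0.40, adjusted p = 0.211). The number of lineage genes that passed moved by over 1.5 times for DKO against Glb1KO, to 0 with the letter as a term and to 0 within letter E, and for the interaction, to 0 within letter E. Within letter E fewer libraries are fitted. Leaving out each library in turn gave 6 to 7 genes for DKO against WT, 6 for Glb1KO against WT, 0 for Neu3KO against WT, 1 for DKO against Glb1KO, 6 for DKO against Neu3KO and 1 to 2 for the interaction, the 2 without Neu3KO replicate 1.

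Over all genes, the count for DKO against WT was 5323, and 3363 with the letter as a term and 2583 within letter E. For Glb1KO against WT it was 726, and 315 and 323 in the same settings. For DKO against Glb1KO it was 2879, and 1203 and 901. Within letter E it was 882 against 4606 for DKO against Neu3KO and 183 against 1255 for the interaction. For Neu3KO against WT it was 0, and 26 without a filter, 3 with these genotypes alone, 2 with DESeq2 and 1 within letter E or without WT replicate 1, WT replicate 2, DKO replicate 1 or DKO replicate 5.

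The replicate numbers did not pair the libraries: 30 correlations of same-numbered libraries ran from -0.129 to 0.065, and 2 of 20 libraries correlated best with their own number. With the replicate number as a block the counts of lineage genes stayed at 7, 6, 0, 1, 6 and 1. For the ratio of Pdgfra to Myrf, the replicate block gave 0.70 for DKO against WT, 1.02 for Glb1KO against WT and 0.55 for DKO against Neu3KO, each with an adjusted exact p = 0.208, since 5 pairs cannot pass the threshold. With a library left out this ratio ran from 0.67 to 0.74 for DKO against WT, from 0.94 to 1.11 for Glb1KO against WT, from 0.49 to 0.61 for DKO against Neu3KO and from -0.40 to -0.24 for DKO against Glb1KO, with adjusted exact p of up to 0.0529 in the first 3, where 4 against 5 libraries limit the exact p. The Olig1 to Olig2 ratio ran from 0.16 to 0.34 for Glb1KO against WT. Nkx2-2 and Zfp488, which reached at most 7.06 CPM in any library, had the largest SE of the 10 for DKO against WT, at 0.16 and 0.17.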
